A study of Mus musculus with 2 samples.

Results

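Chemoattractant receptors are the genes described here: 8 genes of myeloid cells (Cxcr2, Cxcr4, Ccr1, Ccr2, Cx3cr1, Fpr1, Fpr2 and C5ar1) out of 26124 genes counted. They were taken by name, with earlier results of these data known, and each was found in both matrices. Single cells came from bone marrow of C57BL/6 mice, aged 8 to 10 weeks according to the labels. Progenitors left after depletion of lineage-positive cells (Lin-) were grown in 20 ng/ml GM-CSF, a growth factor that drives them towards dendritic cells, macrophages and granulocytes. In the heme group, 300 µM heme-albumin was added on culture day 3, and in the control group albumin alone. Each group was 1 library, a pool of 5 cultures marked by antibody-bound hashtags and harvested on days 0, 3, 4, 5 and 7, so that 10 cultures were compared. The cultures of days 0 and 3 had no heme, and their difference between the libraries gives the background of the comparison. The exposure times in the design text do not match a harvest on day 5 after addition on day 3, so the exposure of that culture is uncertain and culture days are given throughout. The sources do not state whether the 2 libraries took these cells from separate cultures. With 1 library per group, exposure and library cannot be told apart and no test across samples can be made.

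The receptors belong to the family of G protein-coupled receptors and steer leukocytes along gradients of their ligands. Cxcr2 binds ELR-type CXC chemokines such as Cxcl1, Cxcl2, Cxcl3, Cxcl5 and Ppbp and draws neutrophils out of the marrow, whereas Cxcr4 binds Cxcl12 and retains them there. Fpr1 and Fpr2 sense formylated peptides of bacteria and mitochondria, and C5ar1 senses the complement fragment C5a. Ccr1 binds Ccl3, Ccl5 and related chemokines, Ccr2 binds Ccl2 and brings classical monocytes out of the marrow, and Cx3cr1 binds fractalkine (Cx3cl1) and marks resident and patrolling mononuclear phagocytes.

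Transcripts were counted as unique molecular identifiers (UMIs), 1 for each captured molecule. After the limits of the study, 9253 control and 9690 heme cells with 1 hashtag remained, with medians of 11754 and 11047 UMIs. The cultures held 359 (control, day 0) to 2565 cells (control, day 7). The upper limit of 5000 detected genes took out 16.4% to 33.9% of the heme but 4.82% to 8.34% of the control cells of days 3 to 7, so values without this limit are given beside the results that it moved by over 1.5 times. On day 0, the limit on ribosomal UMIs left out 74.8% (control) and 24.8% (heme) of cells, which makes day 0 a weak base for any comparison. Of the barcodes within the limits, 29 occurred in both libraries, 5 of them on the same day. Levels are UMIs of a gene per 1000000 UMIs of all genes (CPM), summed over the cells of a culture, so that a lower level can mean fewer cells with the transcript or less of it per cell. Intervals are exact 95% intervals of the counts and hold no other error. A gene was called at a 2-fold difference in CPM when both cultures together held 20 UMIs or more. Over genes with 10 CPM, the median log2 ratio of heme to control was 0.32, 0.26, 0.25, 0.22 and 0.27 on days 0, 3, 4, 5 and 7, so the libraries were offset from each other on every day. Scaling by TMM (trimmed mean of M values) factors moved all log2 ratios down by 0.25 to 0.33 (median of all genes then -0.07 to 0.07), and the ratios below are to be read against this offset.

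The heme library held higher levels of 5 of the 8 receptors and a lower level of 1. On day 7, the receptors at least 2-fold higher in the heme library were Cxcr2, Cx3cr1, Fpr1, Fpr2 and C5ar1, and the receptor at least 2-fold lower was Ccr2. The same 5 and the same 1 were called on day 5. On day 4, Cxcr2 and Fpr1 were called higher and Ccr2 lower. Neither Cxcr4 nor Ccr1 was called on any of these days. Among all genes, 14.3% were 2-fold higher and 7.25% 2-fold lower on day 7. The shares higher were 9.1% and 9.65% on days 5 and 4, and the shares lower were 3.75% and 2.92%. On day 7, 5 of 8 receptors higher thus stood beside 14.3% of genes, and 1 of 8 lower was near the share of all genes. The 8 receptors were chosen with earlier results of these data known, so this count describes them and is no measure of an excess. Of 14 further chemoattractant receptors with 20 UMIs on that day, 0 were higher and 5 lower. Among the calls of the 8 receptors, those of Cxcr2, Cx3cr1 and Fpr1 on days 5 and 7 were also made with all hashtagged barcodes and with TMM factors. So were those of Fpr2 and of Ccr2 on day 7. Without heme, no receptor was called on day 3, where 8.03% of all genes were higher and 0.523% lower. On day 0, 1 receptor (Cxcr2) was called lower, beside 2.31% of all genes, and 0 higher, beside 13.7%. The median log2 ratio of the 8 receptors was -0.21, 0.50, 0.88, 1.13 and 1.35 on days 0, 3, 4, 5 and 7. The day 3 median lay above that of all genes before any heme had been given, which limits what part of the later differences can be read as exposure.

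**Figure D1:**
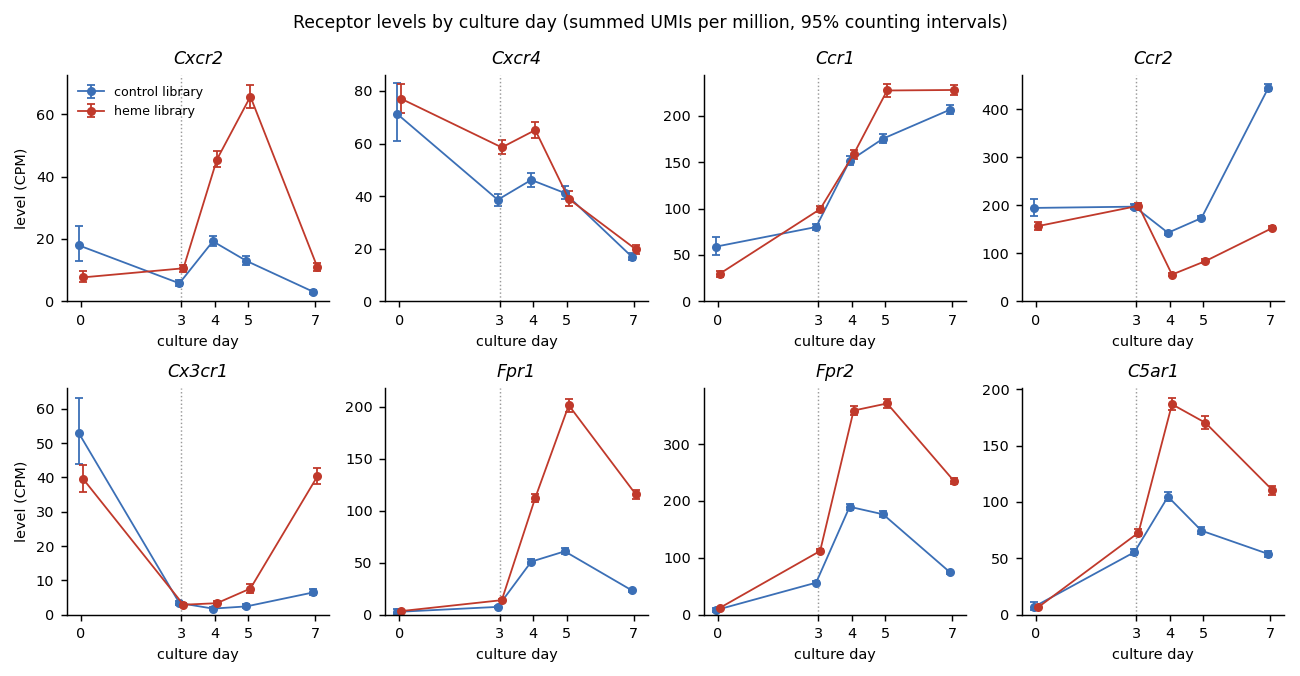
Levels of the 8 receptors in CPM (y axis, linear, from 0) by culture day (x axis) in the control library (blue) and the heme library (red). Points are summed UMIs of 1 culture, bars are 95% counting intervals, and the dotted line marks day 3, when heme or albumin was added. Fpr1, Fpr2 and C5ar1 stand higher in the heme library from day 3 on, Ccr2 separates downwards from day 4, and Cx3cr1 separates mainly on day 7 (40.3 against 6.46 CPM).

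**Figure D2:**
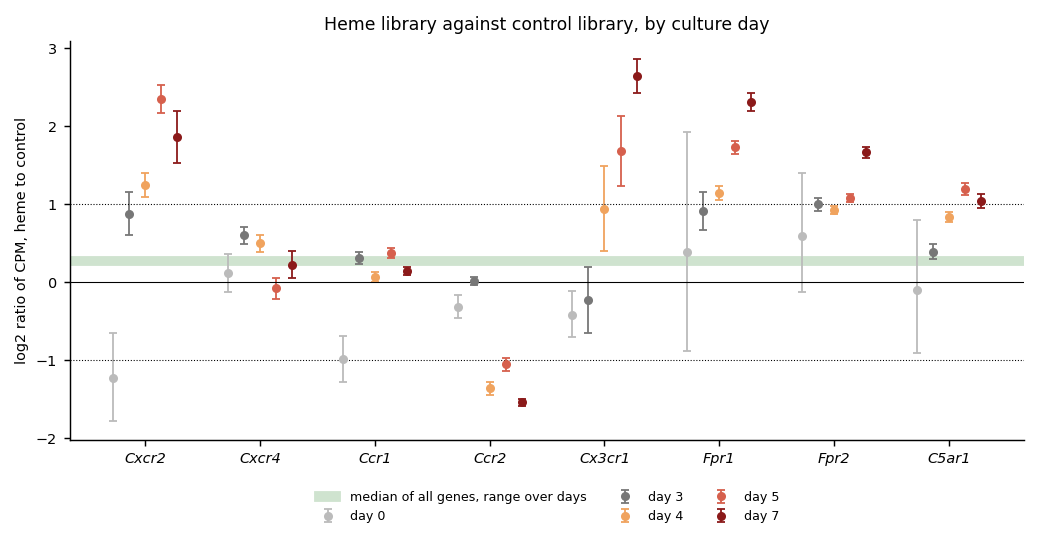
log2 ratio of CPM, heme to control (y axis), of each receptor (x axis) on each culture day (colours). Bars are 95% counting intervals, dotted lines mark 2-fold, and the green band spans the medians of all genes with 10 CPM over the 5 days (0.22 to 0.32). The points of Ccr2 on days 4, 5 and 7 lie below the lower dotted line, and those of Cxcr2 on these days lie above the upper one.

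Cells were also divided by marker transcripts, in a fixed order, into gates. Camp-high cells had 0.2% or more of their UMIs on Camp, a granule gene of developing neutrophils, and S100a8-high Camp-low cells had 1% or more on S100a8, which neutrophils keep after granule genes are shut off. Of the remaining cells, those with 3 or more UMIs of Marco, a scavenger receptor of macrophages, formed the Marco gate, and those with 3 or more UMIs of Vcan, a proteoglycan gene of monocytes, the Vcan gate. Cells with 3 or more UMIs of Ccr7 (migratory dendritic cells) and with 0.2% or more of UMIs on H2-Ab1 (MHC class II) were set apart next, and all others were called the rest. On day 5, the Camp-high gate held 24.3% of control and 14.2% of heme cells, and the S100a8-high Camp-low gate 33.1% and 59.7%. On day 7, these shares were 1.05% and 8.30%, and 4.25% and 15.0%. The Marco gate held 715 heme cells on day 7 (35.5% of the culture) and 12 control cells (0.468%). The Ccr7 and H2-Ab1-high gates went the other way on day 7, with 14.4% and 25.0% of the control cells against 1.49% and 1.84% of the heme cells.

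The markers of the gates were checked against lists of other cell types. In the Camp-high gate, the 8 neutrophil markers, 2 of which are the gate genes, summed to 241889 to 326151 CPM over the 7 cultures with 50 gated cells or more on days 3 to 7. The S100a8-high Camp-low gate held 5 granulocyte-monocyte progenitor markers (Elane, Mpo, Prtn3, Ctsg and Ms4a3) at a sum of 19085 CPM in the control and 9537 CPM in the heme library on day 3, against 2061 and 430 CPM on day 5. This gate therefore held fewer progenitor transcripts on day 5 than on day 3, and more of them in the control library on both days (on day 7 more in the heme library, at 666 and 1142 CPM). The part of this in the differences between the libraries was not tested. In the Marco gate of heme day 7, the 8 macrophage markers summed to 2542 CPM, against 1542 CPM in the whole culture, and 1 of the 8 (Marco, the gate gene) stood at least 2-fold over the culture, in which this gate itself held 11843641 of 26949526 UMIs. None of the 8 was at 0. The neutrophil markers summed to 2758 CPM in this gate, against 29684 CPM in the culture.

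**Figure D3:**
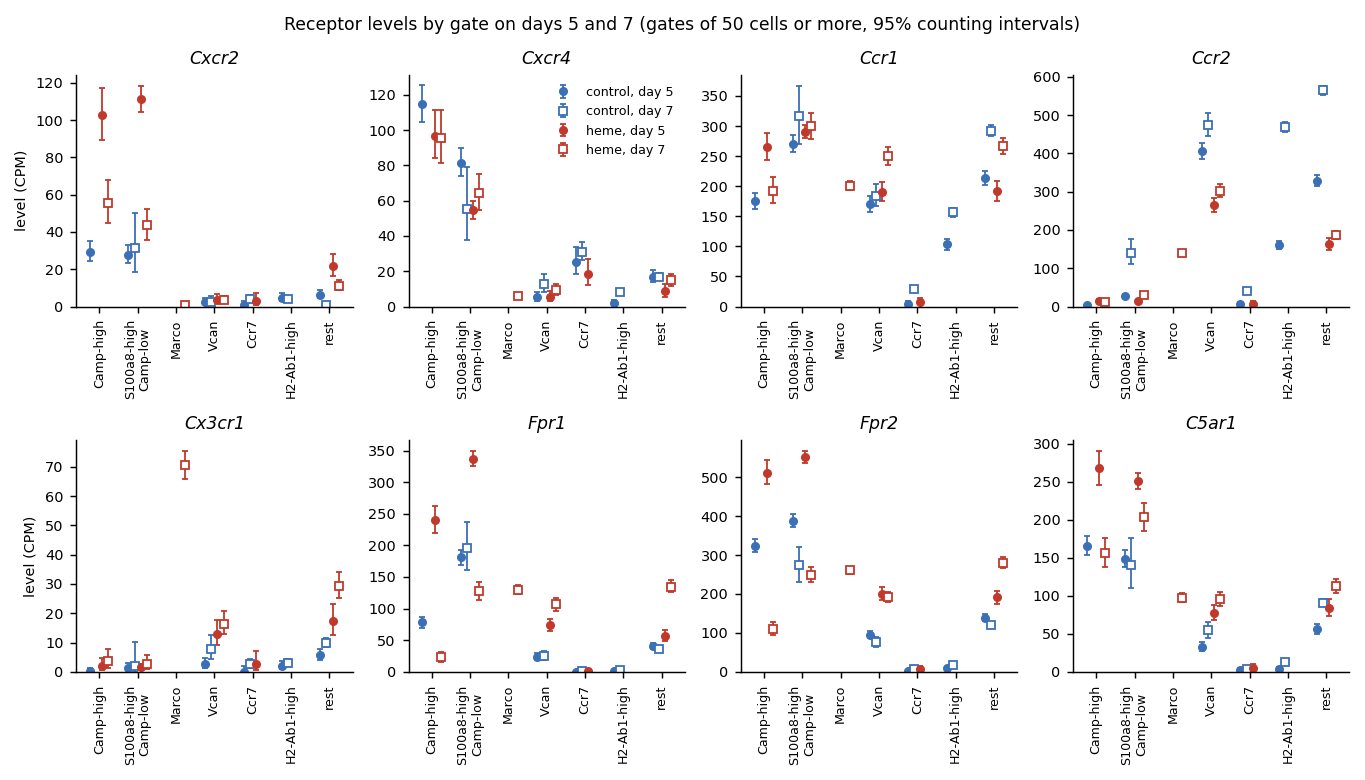
Levels of the 8 receptors in CPM (y axis, linear, from 0) in each gate (x axis) on day 5 (filled circles) and day 7 (open squares) of the control (blue) and heme (red) libraries. Bars are 95% counting intervals, and gates under 50 cells are left out. Cxcr2 and Cxcr4 lie highest in the 2 neutrophil gates, and Ccr2 outside them except in the Ccr7 gate, where it is low. Cx3cr1 lies highest in the Marco gate, which only the heme library of day 7 filled.

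Cxcr2, the receptor of neutrophil-attracting CXC chemokines, was about 5-fold higher in the heme library on day 5. In the control library its level was 17.9, 5.75, 19.2, 12.9 and 3.02 CPM on days 0, 3, 4, 5 and 7. In the heme library it was 7.65, 10.6, 45.5, 65.7 and 10.9 CPM on these days. Within the limits, the control library peaked on day 4 and the heme library on day 5, and their intervals did not overlap on any day. With all hashtagged barcodes, both libraries peaked on day 4, the heme library at 28.0 CPM against 26.3 CPM on day 5. On day 0 the levels were then 4.70 CPM in the control and 4.52 CPM in the heme library. The ratio of heme to control was 0.427 (0.290 to 0.637), 1.84 (1.52 to 2.22), 2.36 (2.13 to 2.63), 5.07 (4.49 to 5.74) and 3.62 (2.87 to 4.59) on the 5 days in order. The ratio thus turned its direction between days 0 and 3, both without heme, and on day 0 it was above 1 (log2 ratio 0.07) when only the lower limit of 500 genes was kept. Divided by the ratio of day 3, those of days 4, 5 and 7 were 1.29, 2.76 and 1.97. With all hashtagged barcodes and no other limit, the ratio of day 5 was 2.54, with a heme level of 26.3 instead of 65.7 CPM and a control level of 10.4 instead of 12.9 CPM. The call of day 4 was lost there (1.71). On day 3, without heme, the levels with all hashtagged barcodes were 5.00 CPM in the control and 5.71 CPM in the heme library. That ratio was 1.14 instead of 1.84, so the offset before heme, and the division by it, depended on the limits.

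The promoter of Cxcr2 is shown because its gene had the largest ratio on day 5. The gene lies on the plus strand of chromosome 1 at chr1:74153989-74161246 (GRCm38, GENCODE M21), with 2 exons and its coding sequence in 1 of them. The 245 bases before its first annotated exon (chr1:74153744-74153988, plus strand, RefSeq, GRCm38.p6) are printed 5′ to 3′, with a match to the ETS core in capitals.
Cxcr2: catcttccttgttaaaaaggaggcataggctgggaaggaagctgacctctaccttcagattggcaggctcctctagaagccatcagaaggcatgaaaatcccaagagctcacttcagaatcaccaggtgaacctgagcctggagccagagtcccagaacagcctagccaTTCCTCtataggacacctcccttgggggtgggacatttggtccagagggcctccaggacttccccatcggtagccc
The motifs searched on both strands of the 250 bases before each start were the ETS core (GAGGAA), an AP-1 site (TGANTCA), an antioxidant response element (TGACNNNGC) and a C/EBP site (TTGCNNAA). None of the 4 overlapped another in the matches found. The single match here was TTCCTC, the ETS core on the reverse strand, 81 bases before the start. Of 32851 such windows of all genes, 23.3% held this motif, 6.75% the AP-1 letters, 10.2% those of the antioxidant response element and 9.56% those of C/EBP. A match is a run of letters and no evidence of binding.

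Within neutrophil-gated cells, Cxcr2 was also higher in the heme library on days 3, 4 and 5. Among S100a8-high Camp-low cells of day 5, it stood at 27.8 CPM in the control and 111 CPM in the heme library, a ratio of 4.00 (3.34 to 4.82). The ratio in this gate was 4.13 (2.02 to 9.29) on day 3, before heme, from 10 control and 38 heme UMIs, and then 2.71 (2.15 to 3.44) on day 4 and 1.38 (0.826 to 2.46) on day 7. The ratio of day 5 was thus no wider than that without heme, and the interval of day 7 included 1. In Camp-high cells, the ratio was 1.36 (1.09 to 1.71), 1.77 (1.56 to 2.02) and 3.49 (2.78 to 4.39) on days 3, 4 and 5. The difference on day 5 was thus present in both neutrophil gates. In rest cells, the ratio was 2.71 (1.44 to 5.35), 2.91 (1.70 to 5.02), 3.44 (2.24 to 5.35) and 13.4 (7.30 to 26.5) on days 3, 4, 5 and 7. The last came from 13 control and 64 heme UMIs, at 0.842 and 11.3 CPM. Higher Cxcr2 in the heme library was thus not confined to neutrophil-gated cells. Thinned to 2000 UMIs per cell, a Cxcr2 UMI was found in 6.46% of 697 control and 21.8% of 1076 heme cells of the S100a8-high Camp-low gate on day 5, the others of 776 and 1138 cells being too shallow. Unthinned, the shares were 11.9% and 42.1%, at median depths of 4858 and 6140.5 UMIs. Erythroid cells of day 0 (Klf1 and Car1), which should lack the gene, held a Cxcr2 UMI in 1.11% of 542 control and 2.35% of 469 heme cells at 18978 and 23867 UMIs. These erythroid cells were taken from all hashtagged barcodes, here and below, and 29 and 154 of them lay within the cell limits. In the Marco gate of heme day 7, 0.839% of cells held a UMI, no more than among these erythroid cells.

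Cxcr2 level did not follow the share of Camp closely. Among neutrophil-gated heme cells of day 5, it was 131 CPM in the 11 cells with 2% or more of UMIs on Camp, 104 CPM at 0.5% to 2%, 98.8 CPM at 0.2% to 0.5%, 137 CPM at 0.05% to 0.2% and 107 CPM under 0.05%. On day 3 of the same library, it was 23.0 CPM in cells with 2% or more and 5.49 CPM in those under 0.05%. On day 3 low Camp thus went with low Cxcr2, in the gate that then held progenitor transcripts, and on day 5 it did not.

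Cxcr4, the marrow retention receptor, did not differ by 2-fold between the libraries on any day. Its level in the control library was 71.2, 38.6, 46.2, 41.2 and 17.0 CPM on days 0, 3, 4, 5 and 7. In the heme library it was 77.0, 58.5, 65.1, 38.9 and 19.8 CPM. Both libraries held their highest level on day 0 and their lowest on day 7. The ratio was 1.52 (1.41 to 1.63), 1.41 (1.31 to 1.52), 0.945 (0.860 to 1.04) and 1.17 (1.03 to 1.31) on days 3, 4, 5 and 7. Within the limits, it was thus nearer to 1 on days 5 and 7 than without heme on day 3. With TMM factors the direction of day 7 turned. With all hashtagged barcodes, the levels of day 5 were 33.3 CPM in the control and 20.2 CPM in the heme library (ratio 0.605). Those of day 3 were 36.0 and 45.9 CPM, so the ratio of day 5 was then further from 1 than that of day 3. In S100a8-high Camp-low cells of day 5, Cxcr4 was lower in the heme library, at 54.5 against 81.5 CPM (ratio 0.669, 0.585 to 0.766), in the same gate whose Cxcr2 was higher. On days 3, 4 and 7 the ratio in this gate was above 1, at 1.68 (1.44 to 1.96) on day 3, 1.39 (1.17 to 1.65) on day 4 and 1.16 (0.784 to 1.78) on day 7, so that of these days Cxcr4 was lower there on day 5 alone, and the interval of day 7 included 1. Cxcr4 was also lower on day 5 in heme cells of the Camp-high (0.846, 0.714 to 0.998) and rest gates (0.516, 0.312 to 0.819). In the Vcan (1.02, 0.496 to 2.08) and Ccr7 gates (0.733, 0.438 to 1.20), the intervals of day 5 included 1. In both libraries on days 3, 4 and 5, its level was lower in S100a8-high Camp-low than in Camp-high cells. These ratios were 0.563 to 0.932. The interval of the ratio included 1 in the heme library on day 3. Erythroid cells of day 0 held 13.6 and 15.6 CPM of Cxcr4 in the control and heme libraries. Vcan-gated cells of days 5 and 7 lay below this reference, at 5.22 to 12.6 CPM. Rest cells of the control library (16.8 and 16.9 CPM on days 5 and 7) and Ccr7 cells of day 5 (25.3 CPM in the control and 18.6 CPM in the heme library) had higher values, and the intervals of these rest cells (13.6 to 20.5 and 14.9 to 19.1 CPM) reached the reference. Within the cell limits, erythroid cells held 15.7 CPM in 29 control and 20.5 CPM in 154 heme cells. The latter lay above these rest cells and the Ccr7 cells of the heme library. Among all hashtagged barcodes, erythroid cells held Cxcr4 at 43.4% (control) and 45.0% (heme) of the level of the whole library. The next receptor, Cx3cr1, was at 29.7% and 16.4%. A Cxcr4 UMI was found in 21.4% and 30.5% of these erythroid cells. Whether they express Cxcr4 themselves was not tested, so this reference cannot show whether the Cxcr4 of other cells is background. Cxcr4 (chr1:128588199-128592293, minus strand) has 2 exons, both with coding sequence.

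Fpr1 and Fpr2, the formyl peptide receptors, were higher in the heme library on every day from day 3, and the difference was widest on day 7. Fpr1 was at 2.56, 7.36, 50.9, 60.8 and 23.3 CPM in the control library and at 3.34, 13.8, 112, 201 and 116 CPM in the heme library on days 0, 3, 4, 5 and 7. Fpr2 was at 7.68, 56.1, 190, 177 and 74.2 CPM in the control library and at 11.6, 112, 359, 372 and 235 CPM in the heme library. The intervals of the libraries overlapped on day 0 for both genes and on no later day. The ratios of Fpr1 were 1.88 (1.59 to 2.22), 2.21 (2.07 to 2.36), 3.31 (3.12 to 3.51) and 4.96 (4.58 to 5.38) on days 3, 4, 5 and 7. Those of Fpr2 were 1.99 (1.88 to 2.12), 1.89 (1.83 to 1.96), 2.11 (2.03 to 2.19) and 3.16 (3.02 to 3.32). Since the ratio of Fpr2 was close to 2 on day 3 already, its ratios divided by that of day 3 were 0.95, 1.06 and 1.59 on days 4, 5 and 7, and those of Fpr1 were 1.18, 1.76 and 2.64. On days 4 and 5, the ratio of Fpr2 was thus near that before exposure. With all hashtagged barcodes, the ratio of day 5 was 2.26 for Fpr1 and 1.52 for Fpr2, so that the call of Fpr2 on day 5 was lost there, as it was with TMM factors.

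Fpr1 and Fpr2 are neighbours on chromosome 17 that are read in opposite directions, and their upstream sequences are shown because both genes were higher in the heme library. Fpr1 lies at chr17:17876471-17883940 on the minus strand and Fpr2 at chr17:17887824-17893952 on the plus strand, with 3883 bases between them, and each has 2 exons and its coding sequence in 1. The bases before the first annotated exon are printed 5′ to 3′ on the strand of each gene, from chr17:17883941-17884189 for Fpr1 and chr17:17887574-17887823 for Fpr2 (RefSeq, GRCm38.p6), again with matches in capitals.
Fpr1: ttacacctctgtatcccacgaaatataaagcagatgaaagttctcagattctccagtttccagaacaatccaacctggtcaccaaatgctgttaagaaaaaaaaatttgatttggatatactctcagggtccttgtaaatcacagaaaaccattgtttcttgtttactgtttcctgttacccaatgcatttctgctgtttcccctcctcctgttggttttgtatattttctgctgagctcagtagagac
Fpr2: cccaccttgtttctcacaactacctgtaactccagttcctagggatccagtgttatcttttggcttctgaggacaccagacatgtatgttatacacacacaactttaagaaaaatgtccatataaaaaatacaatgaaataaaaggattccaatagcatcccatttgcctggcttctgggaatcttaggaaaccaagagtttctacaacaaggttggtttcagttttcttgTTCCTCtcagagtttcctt
The window of Fpr2 held TTCCTC, the ETS core on the reverse strand, 19 bases before the start. That of Fpr1 held none of the 4 motifs. Among the 8 receptors, 3 (Cxcr2, Ccr1 and Fpr2) held a match in the 250 bases searched, each to the ETS core. Fpr2 shares 48 of its 1296 exonic bases with Fpr3, a gene on the same strand whose span overlaps it, so reads in these bases cannot be assigned to either with certainty.

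The gates showed where the formyl peptide receptors were counted. In S100a8-high Camp-low cells, Fpr1 was at 96.6 CPM in the control and 175 CPM in the heme library on day 4, and at 181 and 337 CPM on day 5, with ratios of 1.81 (1.61 to 2.04) and 1.86 (1.73 to 2.01). On day 7 it was at 196 and 128 CPM, a ratio of 0.652 (0.522 to 0.819), from 109 control and 302 heme cells. On day 3, before heme, the ratio of Fpr1 in this gate was already 3.00 (1.79 to 5.204), from 21 control and 58 heme UMIs, and that of Fpr2 was 2.83 (2.27 to 3.54). The heme library thus stood higher on day 3 without heme and on days 4 and 5, and lower on day 7 within this gate, while the whole culture stood higher on all these days. In Vcan-gated cells, the ratio of Fpr1 was 1.77 (1.39 to 2.26), 2.54 (2.04 to 3.17), 3.09 (2.41 to 3.99) and 4.22 (3.16 to 5.74) on days 3, 4, 5 and 7. That of Fpr2 was 1.94 (1.77 to 2.13), 1.54 (1.38 to 1.72), 2.09 (1.83 to 2.39) and 2.54 (2.14 to 3.04). In these cells the ratio of Fpr1 was therefore higher on each later day, and no lower than in the neutrophil gates on days 4, 5 and 7. The Marco gate of heme day 7 held 130 CPM of Fpr1 and 261 CPM of Fpr2, so that both receptors were counted outside neutrophil-gated cells too. Thinned to 2000 UMIs, 22.5% of these 715 cells held an Fpr1 UMI and 39.0% an Fpr2 UMI, against 76.4% and 93.7% unthinned at a median of 17118 UMIs. In the erythroid cells of day 0 in the heme library, the unthinned shares were 4.69% and 13.6%.

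Fpr1 and Fpr2 UMIs were found in the same cells. Among S100a8-high Camp-low heme cells of day 5 thinned to 5000 UMIs, Fpr2 was detected in 88.7% (85.6% to 91.4%) of 496 cells with an Fpr1 UMI and in 57.5% of 219 cells without one. On day 5 of the control library, these shares were 82.0% of 167 cells and 52.9% of 210 cells. In the same heme cells, Fpr1 was detected in 86.5% of 237 cells with a Cxcr2 UMI and in 60.9% of 478 cells without. Cells with an Fpr1 UMI thus held Fpr2, and cells with a Cxcr2 UMI held Fpr1, more often than cells without. For Cxcr2 and Cxcr4 the intervals overlapped, with Cxcr4 in 26.2% (20.7% to 32.2%) of these 237 cells with a Cxcr2 UMI and in 20.5% (17.0% to 24.4%) of the 478 without. In the Marco gate of day 7 the gap was small, with Fpr2 in 70.5% of 322 cells with Fpr1 and in 64.9% of 385 without.

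C5ar1, the receptor of complement fragment C5a, was about 2-fold higher in the heme library on days 5 and 7. Its level was 6.83, 55.4, 105, 74.4 and 53.7 CPM in the control library and 6.38, 72.7, 187, 170 and 110 CPM in the heme library on days 0, 3, 4, 5 and 7. Both libraries peaked on day 4, and their intervals overlapped on day 0 only. The ratio was 1.31 (1.23 to 1.40), 1.78 (1.70 to 1.87), 2.29 (2.16 to 2.42) and 2.06 (1.94 to 2.18) on days 3, 4, 5 and 7. In S100a8-high Camp-low cells, it was 2.05 (1.84 to 2.30), 1.69 (1.55 to 1.84) and 1.44 (1.13 to 1.86) on days 4, 5 and 7, and in Vcan-gated cells it was 2.66 (2.20 to 3.22), 2.33 (1.86 to 2.91) and 1.76 (1.42 to 2.19). On day 3, without heme, these ratios were already 1.28 (1.07 to 1.53) and 1.42 (1.17 to 1.72). In Camp-high cells, the ratio was 0.991 (0.918 to 1.07), 1.24 (1.17 to 1.31) and 1.61 (1.44 to 1.80) on days 3, 4 and 5. On days 4 and 5, the heme library was thus higher in both neutrophil gates and in Vcan-gated cells. The culture's ratio lay close to the 2-fold threshold, and with all hashtagged barcodes (1.69 on day 5 and 1.85 on day 7) or with TMM factors C5ar1 was not called. C5ar1 (chr7:16246743-16259540, minus strand) has 3 exons, 2 of them with coding sequence. Across the 10 cultures, log2(CPM + 1) of C5ar1 went with that of Fpr2 (Pearson r = 0.98) and Fpr1 (0.89), and Fpr1 went with Fpr2 (0.95). These 10 points share 2 libraries and their composition, and the values are a description.

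Ccr2, the receptor of classical monocytes for Ccl2, was lower in the heme library from day 4 on. Its level in the control library was 195, 197, 143, 173 and 445 CPM on days 0, 3, 4, 5 and 7. In the heme library it was 157, 199, 55.6, 83.7 and 153 CPM. The libraries were nearly equal on day 3, both were lower on day 4, and the control library reached its highest level on day 7 while the heme library stayed under its own level of day 3. The ratio was 0.805 (0.725 to 0.895), 1.01 (0.974 to 1.05), 0.389 (0.367 to 0.414), 0.483 (0.456 to 0.511) and 0.343 (0.331 to 0.355). With all hashtagged barcodes, the ratios of days 4, 5 and 7 were 0.63, 0.64 and 0.35, so that the calls of days 4 and 5 were not made without the limits. Among genes with 20 UMIs or more in both cultures together, 1.07% had a ratio below that of Ccr2 on day 4, 3.38% on day 5 and 4.57% on day 7.

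Ccr2 was lower in the heme library within the gates where it was counted most. In Vcan-gated cells, the control library held 518, 414, 406 and 476 CPM on days 3, 4, 5 and 7 and the heme library 588, 292, 266 and 303 CPM. The ratio was 1.14 (1.09 to 1.19) on day 3 and then 0.706 (0.653 to 0.763), 0.654 (0.599 to 0.712) and 0.637 (0.585 to 0.693). Within this gate, the heme library was thus slightly higher before exposure and lower on each day after it, by less than 2-fold. On day 7, however, 244 heme cells and 1 control cell with 3 or more Vcan UMIs lay in the Marco gate instead. The groups by Vcan UMIs below include these cells. In the rest gate, the ratio was 1.30 (1.20 to 1.41) on day 3 and 0.459 (0.400 to 0.525), 0.496 (0.446 to 0.551) and 0.330 (0.309 to 0.352) on days 4, 5 and 7. On day 7, S100a8-high Camp-low cells held 141 CPM in the control and 28.9 CPM in the heme library. The H2-Ab1-high gate, which the heme library hardly filled, held 469 CPM on day 7 of the control library, and the Ccr7 gate held 41.6 CPM. The erythroid cells of day 0 held 5.80 and 8.23 CPM, and those within the cell limits 23.6 and 4.03 CPM, from 12 and 11 UMIs.

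In the heme library, Ccr2 was higher in each group of cells with more Vcan, and in the control library it was not ordered this way. Outside the neutrophil gates on day 7, heme cells with 0, 1 to 2, 3 to 9 and 10 or more Vcan UMIs held 111, 156, 227 and 354 CPM of Ccr2. Control cells with 0, 1 to 2 and 3 to 9 Vcan UMIs held 426, 549 and 472 CPM, and only 5 control cells had 10 or more. The libraries thus lay closest together in the cells with 3 to 9 Vcan UMIs. These groups include Marco-gated cells, and at 3 to 9 Vcan UMIs the libraries lay further apart than in the Vcan gate. Deeper cells fall more often into the higher groups, with medians of 11241 to 20593 UMIs over the 4 heme groups.

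Ccr1, which lies 133257 bases from Ccr2 on chromosome 9 (chr9:123962124-123968692, minus strand, against chr9:124101950-124113557, plus strand), did not differ by 2-fold between the libraries on days 3 to 7. Its level was 58.9, 80.1, 151, 176 and 207 CPM in the control library and 29.6, 99.4, 159, 227 and 228 CPM in the heme library. It was higher on each later day in both libraries, and day 7 lay close to day 5 in the heme library. The ratio was 0.503 (0.410 to 0.620) on day 0 and 1.24 (1.18 to 1.31), 1.05 (1.00 to 1.09), 1.30 (1.24 to 1.35) and 1.10 (1.06 to 1.14) afterwards, near the median of all genes, and with TMM factors below 1 on days 3, 4 and 7. Unlike Ccr2, it was counted in neutrophil-gated and other cells at like levels: on day 5 of the heme library, at 265 CPM in Camp-high, 291 in S100a8-high Camp-low, 191 in Vcan-gated and 192 in rest cells, and at 7.57 CPM in Ccr7 cells. The Ccr7 gate stood apart in the control library too, at 4.96 CPM on day 5 and 28.5 CPM on day 7. In the gates common to both libraries on days 4, 5 and 7, the ratio of heme to control lay between 0.90 and 1.53. Ccr1 has 2 exons and Ccr2 has 3, and each has its coding sequence in 1.

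Cx3cr1, the fractalkine receptor, showed the widest ratio of the receptors on day 7. Its level was 52.9, 3.35, 1.73, 2.37 and 6.46 CPM in the control library and 39.6, 2.86, 3.32, 7.59 and 40.3 CPM in the heme library on days 0, 3, 4, 5 and 7. Both libraries were highest or nearly so on day 0 and lower on day 3, and the heme library was back at its day 0 level by day 7. The ratio was 0.749 (0.611 to 0.924), 0.853 (0.636 to 1.14), 1.91 (1.32 to 2.80), 3.2 (2.36 to 4.39) and 6.24 (5.38 to 7.27). On days 3 to 5 the counts were small, with 45 to 147 UMIs per culture.

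In the heme library of day 7, Cx3cr1 was counted mainly in the Marco gate. The level there was 70.5 CPM (65.8 to 75.5), against 16.4 CPM in Vcan-gated, 29.4 CPM in rest, 2.77 CPM in S100a8-high Camp-low and 3.62 CPM in Camp-high cells. Outside the neutrophil gates, cells with 0, 1 to 2, 3 to 9 and 10 or more Marco UMIs held 17.7, 34.6, 53.5 and 77.7 CPM of Cx3cr1. The level of Ccr2 in these cells went the other way above 2 UMIs of Marco, at 208, 249, 191 and 117 CPM. Of Marco-gated cells, 37.3% held a Cx3cr1 UMI, 10.3% after thinning to 2000 UMIs, against 3.62% of the erythroid cells of day 0 in the heme library. In the Marco gate thinned to 5000 UMIs, Ccr2 was detected in 37.3% (29.6% to 45.4%) of 153 cells with a Cx3cr1 UMI and in 29.8% of 554 without, so UMIs of both were found in the same cells. The Marco gate also held 244 cells that passed the Vcan threshold.

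Cx3cr1 was also higher in the heme library outside the Marco gate. In Vcan-gated cells, the ratio was 1.00 (0.652 to 1.54), 1.27 (0.750 to 2.15), 4.99 (2.44 to 11.2) and 2.11 (1.21 to 3.90) on days 3, 4, 5 and 7. In rest cells, it was 0.887 (0.494 to 1.57), 7.80 (3.45 to 19.9), 3.06 (1.92 to 4.94) and 2.95 (2.36 to 3.70). When the levels of the heme gates were weighted by the share of UMIs that each gate held in the control library, a setting chosen after the data were seen, the ratio of day 7 was 2.56 instead of 6.24. The gene spans chr9:119901616-120069879 on the minus strand with 4 merged exons, 1 of them with coding sequence, and its span overlaps other annotated genes, none of which shares exonic bases with it except an antisense RNA (Gm33858) that was not counted.

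**Figure D4:**
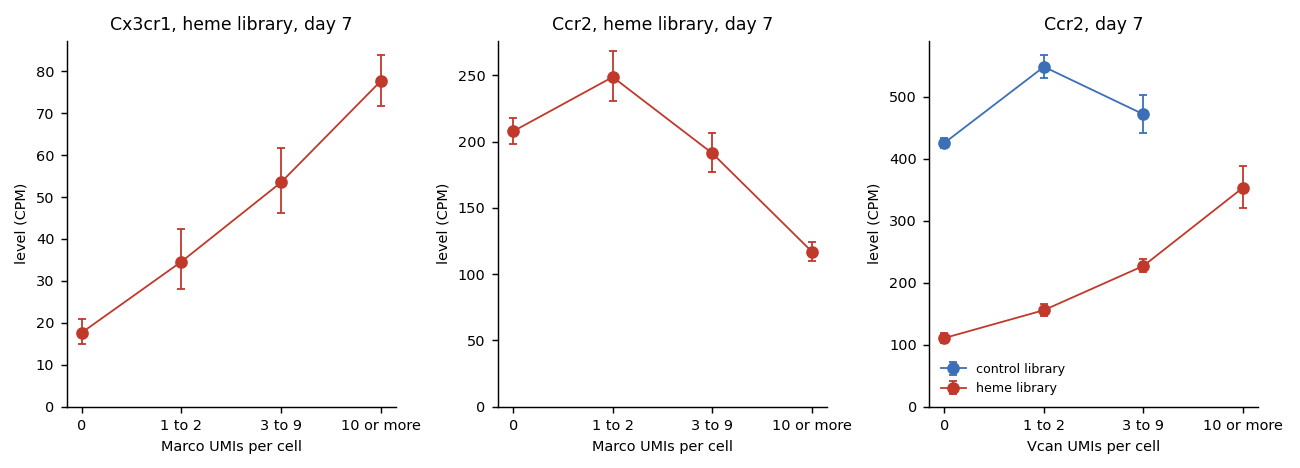
Levels in CPM (y axes, linear, from 0) of Cx3cr1 and Ccr2 by Marco UMIs per cell in the heme library of day 7 (left and middle), and of Ccr2 by Vcan UMIs per cell in both libraries of day 7 (right, control in blue, heme in red). Cells of the 2 neutrophil gates and groups under 20 cells are left out, and bars are 95% counting intervals. Cx3cr1 is higher in each group with more Marco (17.7 to 77.7 CPM), and Ccr2 of the heme library in each group with more Vcan (111 to 354 CPM).

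The same weighting by control gate shares was applied to the other receptors. On day 7, the ratios became 2.98 for Cxcr2, 3.19 for Fpr1, 2.22 for Fpr2, 1.23 for C5ar1 and 0.293 for Ccr2. On day 5, they became 3.48, 2.11, 1.53, 1.70 and 0.561. At equal gate shares, 4 of the 5 receptors called higher on day 7 were thus still above 2-fold and Ccr2 still below, whereas C5ar1 was not called, and on day 5 Fpr2, C5ar1 and Ccr2 were not. This weighting used every gate that held cells in both libraries, also those under 50 cells. On day 7, the Ccr7 and H2-Ab1-high gates held 4779424 and 9634915 of the 32815556 control UMIs. Their heme levels came from only 30 and 37 cells, so the weighted ratios rest in part on few cells. The gates are few and broad, and cells may differ in type within them.

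Counting 2-fold calls within gates gave the following. In Camp-high cells of day 3, before heme, 2 receptors were called higher (Fpr1, 2.25, 1.48 to 3.52, and Fpr2, 2.00, 1.80 to 2.23) and 1 lower (Cx3cr1, 0.387, from 18 control and 11 heme UMIs), beside 12.8% and 0.577% of all genes tested there. In these cells on day 4, 1 receptor (Cx3cr1, with 4 control and 18 heme UMIs) was called higher and 0 lower, beside 16.3% and 0.626%. On day 5, 3 were called higher (Cxcr2, 3.49, Fpr1, 3.08, and Ccr2, 3.16, 1.72 to 5.94, from 19 control and 30 heme UMIs) and 0 lower, beside 11.6% and 1.81%. Among S100a8-high Camp-low cells of day 3, before heme, 3 were called higher (Cxcr2, Fpr1 and Fpr2) and 0 lower, beside 16.9% and 1.33%. On day 4, 2 were called higher (Cxcr2 and C5ar1) and 1 lower (Ccr2, 0.449, 0.333 to 0.6004), beside 14.1% and 3.01%. On day 5, 1 was called higher (Cxcr2) and 0 lower, beside 8.17% and 2.47%. On day 7, 0 were called higher and 1 lower (Ccr2, 0.205, 0.147 to 0.287), beside 17.2% and 3.91%. More receptors were thus called higher in this gate without heme than on any day with it. In Vcan-gated cells of day 3, 0 were called in either direction, beside 4.04% higher and 0.42% lower of all genes, and on day 4, 2 were called higher (Fpr1 and C5ar1) and 0 lower, beside 10.8% and 2.78%. In these cells 4 were called higher on day 5 (Cx3cr1, Fpr1, Fpr2 and C5ar1) beside 9.86%, and 3 on day 7 (Cx3cr1, Fpr1 and Fpr2) beside 15.1%, with 0 lower on either day beside 3.62% and 5.37%. Between the Marco and Vcan gates of heme day 7, 1 receptor was higher in the Marco gate (Cx3cr1, ratio 4.30, 3.36 to 5.58), beside 3.04% of all genes. Lower there were 2 (Ccr2, 0.459, 0.427 to 0.495, and Cxcr2, 0.203, 0.0738 to 0.518, from 8 and 14 UMIs), beside 2.32%. The fixed order kept cells that passed the Marco threshold out of the Vcan gate. Over the alternative gates and barcodes, the ratio was 1.52 to 5.23 for Cx3cr1, 0.437 to 0.700 for Ccr2 and 0.173 to 0.558 for Cxcr2. None of these calls was thus kept under every alternative.

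Other genes of the pathway were read from 4 lists. Of 30 further chemoattractant receptors, 14 reached 20 UMIs on day 7. Of these, 0 were 2-fold higher and 5 lower, beside 14.3% and 7.25% of all genes. Their median log2 ratio was -0.27 against 0.27 over all genes. Gpr183, an oxysterol receptor of dendritic cells and lymphocytes, was at 37.9 CPM in the control and 6.27 CPM in the heme library (ratio 0.165, 0.140 to 0.194). Ccr7, the lymph node homing receptor of dendritic cells, was at 135 and 31.4 CPM (0.233, 0.217 to 0.251). Ccrl2, Xcr1 and Ackr3 were the others lower, the last with 21 UMIs in the control and 0 in the heme library. The 2 receptors with the largest positive log2 ratio were under 2-fold: Ptafr, the receptor of platelet-activating factor, at 54.4 and 102 CPM, and C5ar2, the second C5a receptor, at 6.34 and 11.7 CPM. On day 5, C5ar2 was 2-fold higher, at 8.56 and 22.4 CPM. On day 4, Cmklr1, the chemerin receptor, was at 9.09 and 19.7 CPM.

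Among 27 ligands, 23 reached 20 UMIs on day 7, of which 2 were higher and 10 lower, beside 14.3% and 7.25% of all genes. Their median log2 ratio was -0.60, against 0.27 over all genes. The ligands of Cxcr2 named here stood higher in the heme library on day 5. On that day, Cxcl2 was at 103 CPM in the control and 251 CPM in the heme library, Cxcl3 at 40.7 and 179, Ppbp at 9.53 and 101.4, and Cxcl5 at 0.156 and 9.24. Cxcl1 was also called there, from 15 control and 26 heme UMIs (2.30, 1.17 to 4.67), and on day 7 its ratio was 0.724 (0.494 to 1.05). The other 4 were also 2-fold higher on day 3, before heme (Cxcl5 from 1 and 19 UMIs), so the libraries were offset in these genes too. On day 7, Cxcl5 and Ppbp were still called, while Cxcl2 (1.81) and Cxcl3 (0.896) were not. The ligand of Ccr2 went the other way: Ccl2 was at 267 and 41.8 CPM on day 5 (ratio 0.157, 0.146 to 0.169) and at 296 and 130 CPM on day 7. Cx3cl1, the ligand of Cx3cr1, was at 8.87 and 1.11 CPM on day 7. The dendritic cell chemokines Ccl17 and Ccl22 were at 5140 and 102 CPM and at 587 and 82.2 CPM, and Cxcl16 and Ccl5 were lower too (0.213 and 0.269). Cxcl12, the ligand of Cxcr4, had at most 36 UMIs in any culture.

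Signalling genes behind the receptors differed less. Of 22 G protein and effector genes, all with 20 UMIs, 2 were higher on day 7 and 0 lower, beside 14.3% and 7.25% of all genes. The median log2 ratio of this list was 0.24, against 0.27 over all genes. The 2 higher were Ptk2b, a calcium-regulated tyrosine kinase, at 35.04 and 86.0 CPM (2.46, 2.29 to 2.64), and Elmo1, which couples receptors to the Rac activator Dock2, at 27.5 and 61.3 CPM (2.23, 2.05 to 2.42). The next was Vav1 (1.997), a guanine nucleotide exchange factor of blood cells. Of 13 desensitisation genes, 0 were higher and 1 lower, beside the same shares of all genes. The 1 lower was Rgs10, at 131 and 57.5 CPM (0.439, 0.414 to 0.465). Rgs1 (0.548), Grk2 (1.66) and Rgs3 (0.614) did not reach 2-fold. On days 3 and 4, none of the genes of these 2 lists was called in either direction. Of all genes, 8.03% and 9.65% were higher and 0.523% and 2.92% lower on these days.

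The genes most like each receptor were sought among 7916 genes with a mean of 10 CPM, by Pearson r of log2(CPM + 1) over the 10 cultures. They were Thy1, Gchfr and Ccpg1 for Cxcr2 (r = 0.94, 0.91 and 0.91), Optn, Rbm38 and Tbc1d10c for Cxcr4 (0.96 each), and Cdc42, Il1b and Ccl6 for Ccr1 (0.98, 0.97 and 0.97). For Ccr2 they were Fau, Grhpr and Pld4 (0.93, 0.91 and 0.91), and for Cx3cr1 Saraf, Cfap36 and Kif1bp (0.98 each). For Fpr1 they were Arg2, Tmem120a and Timp2 (0.98 each), for Fpr2 Degs1, Cd33 and Plekhg1 (0.99 each), and for C5ar1 S100a6, Gas7 and Degs1 (0.99 each). Degs1 was thus named for both Fpr2 and C5ar1. The least alike pair of receptors was Cxcr2 and Ccr2 (-0.88).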

How the data were processed

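Droplet single-cell RNA-seq (3′ chemistry with UMIs and hashtag antibodies) had been run on 1 control and 1 heme library. Per the file headers and methods, the authors had made the deposited count matrices with Cell Ranger (4.0.0 in the processing notes, 5.0.0 in the matrix header) on GRCm38.p6, and hashtag calls with HTODemux in Seurat 3.2.3. The counts are UMIs, not normalized.

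Barcodes called Singlet were kept at 500 to 5000 genes, under 15% mitochondrial and under 30% ribosomal UMIs (84 genes). Singlets still hold doublets of the same hashtag, put at 2.75% and 3.68% of them from the share of called doublets, and no further caller was run. UMIs were summed per culture or gate of at least 50 cells (of any size in the weighting by control gate shares) and divided by the total. Levels carry exact Poisson intervals, ratios exact conditional intervals and shares Clopper-Pearson intervals. With 1 library per group and no residual degrees of freedom, no p-value was computed and no replicate could be left out. The receptors and lists were chosen with earlier results of these data known. Named list genes were those past 2-fold with 20 UMIs and the largest others of day 7, of which 1 is not reported here. Analyses used Python 3.11.15 (numpy 2.4.6, scipy 1.17.1, pandas 2.3.3) and R 4.3.3 (edgeR 4.0.16 and DESeq2 1.42.0 for scaling factors only) and were tested on simulated data.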

Additional observations from a re-analysis of the deposited data

Results flagged for a closer look

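One pattern was picked out because its direction differed between days. Fpr1 in S100a8-high Camp-low cells had ratios of heme to control of 1.81, 1.86 and 0.652 on days 4, 5 and 7. On day 3, without heme, the ratio in this gate was 3.00 (1.79 to 5.204), so that the heme library stood higher in this gate before exposure too. The difference between days was not tested. The values of day 7 come from 109 control and 302 heme cells, with 106 and 323 Fpr1 UMIs. Summed progenitor markers in these cells were at 7375 and 1014 CPM on day 4, 2061 and 430 CPM on day 5, and 666 and 1142 CPM on day 7 in the control and heme libraries, and their part in the pattern was not tested.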

How the results depend on the processing

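The 5 receptors called higher on day 5 became 3 with TMM or DESeq2 factors, all Singlet barcodes, only the lower limit of 500 genes, the mean over cells, or the control library's gate shares, and 2 after division by the day 3 ratio. The 2 called higher on day 4 became 0 with TMM factors and 1 (Cxcr2) with DESeq2 factors. With all Singlet barcodes, the lower limit alone, the mean over cells, the day 3 ratio or the control gate shares, the 1 called was Cx3cr1, which is neither of these 2. The 5 on day 7 became 2 after division by the day 3 ratio, and 4, without C5ar1, with TMM or DESeq2 factors, the total without ribosomal and mitochondrial genes, all Singlet barcodes, the lower limit alone, the mean over cells, thinning to 5000 UMIs or the control gate shares. Ccr2, the 1 called lower, became 0 on days 4 and 5 with all Singlet barcodes, the lower limit alone or the control gate shares, on day 5 also with the mean over cells, and stayed called on day 7 under each alternative. The log2 ratio of Cxcr2 on day 0 (-1.23) was 0.0738 with the lower limit alone and 0.61 after thinning to 5000 UMIs. For these shifts, the cause was not tested. For called ratios of days 4 to 7, 56 alternative values lay within the main interval and 94 outside, with the same sign. Between gates, 250 lay within and 51 outside. Thinning gave no value for C5ar1 on day 0, where the control culture had no UMI left. The control gate shares, thinning to 2000 UMIs and a second ribosomal gene pattern were chosen after seeing the data. No paired analysis was possible because each group is 1 library.

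Depth limits Cx3cr1 on days 3 to 5 and the receptors with few UMIs in the gates, where intervals span over 2-fold.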

Other observations

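Barcodes outside the cell limits also carried receptor UMIs. Singlets with more than 5000 genes held Cxcr2 at 2.89 CPM in 754 heme cells of day 5, of which 9.42% fell in the neutrophil gates, and Ccr2 at 158 CPM. In 218 such control cells of day 5, Cxcr2 was at 2.95 CPM and Ccr2 at 299 CPM, so that Cxcr2 was nearly equal between the libraries above this limit. In 756 such heme cells of day 7, Cx3cr1 was at 28.2 CPM and Fpr1 at 77.7 CPM. In 152 control cells of day 7, Cx3cr1 was at 5.18 CPM, Fpr1 at 10.54 CPM and Ccr2 at 547 CPM. On day 7, the heme cells above this limit thus also held more Cx3cr1 and Fpr1 and less Ccr2 than the control cells above it. Barcodes without a hashtag call held Cxcr2 at 5.74 CPM in 652 control and 15.1 CPM in 1218 heme barcodes, at medians of 2394 and 3164.5 UMIs.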
